A study of Mus musculus with 4 samples.

Results

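The cytochrome P450 enzymes of families 1 to 4 were examined in small intestine of HNF4 null mice and of control mice. Members were the genes with a symbol of Cyp1, Cyp2, Cyp3 or Cyp4 followed by a letter on a probe set annotated to that gene alone, and the probe set with the highest mean over the 4 arrays stood for each gene. There were 49 members among 12393 genes with a probe set of their own, with 3 in Cyp1, 31 in Cyp2, 5 in Cyp3 and 10 in Cyp4. They had 58 probe sets, and 4 more probe sets annotated to several genes of these families were left out.

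Cytochrome P450 enzymes are haem proteins, most of them in the endoplasmic reticulum, that oxidise lipophilic molecules with electrons passed on by the reductase Por. The first 3 families act mainly on drugs, plant compounds and pollutants, together with steroids and arachidonic acid, and Cyp4 enzymes hydroxylate fatty acids and eicosanoids at or near the end of the chain. Enterocytes carry part of this set and so oxidise swallowed compounds before they reach the liver. The receptors AHR, CAR, PXR and PPARA induce members of Cyp1, Cyp2b, Cyp3a and Cyp4a, and HNF4 proteins bind direct repeat elements near many P450 genes in liver.

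The null animals, 1 male and 1 female, were HNF4 loxP/- and carried villin cre, a transgene active in gut epithelium, so that other cells of the gut wall keep the loxP allele. The control male was also loxP/- but had no Cre, and the control female was loxP/+ with villin cre. All 4 mice were 1 month old, and each gave 1 Affymetrix array of total RNA. The controls thus differed in genotype as well as in sex, and the animal numbers in the labels are adjacent within each sex, so sex and whatever adjacent numbers stand for cannot be told apart.

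Median deposited intensities were 43.2 and 53.3 in the null male and female, against 49.5 and 50.2 in the control male and female. The null male had the 3 lowest correlations with other arrays, 0.927 to 0.946. Hnf4a, one of the HNF4 genes, read 1136 and 1025 in the null male and female, against 731 and 1141 in the control male and female, so its transcript was not below both controls in the null animals, and where its probes lie relative to the deleted part is not given in the sources used here. Its relative Hnf4g read 327 and 445 in the null male and female, against 309.6 and 404 in the control male and female. All 8 enterocyte markers with a probe set passed the filter on dim values, and the defining liver marker Alb read 35.5 and 17.9 in the null male and female, against 36.9 and 42.8 in the control male and female, with Fga, Fgb, Ahsg, Tat and Ttr between −3.94 and 59.1 over the 4 arrays. The summed intensity of all 7 hepatocyte markers measured was 1211 and 1272 in the null male and female, against 1435 and 1363 in the control male and female, most of it from Cps1, which enterocytes also express and which read 1048 and 1143 in the null male and female, against 1312 and 1226 in the control male and female. The files carry no detection calls. As a rough guide to empty signal, 6 probe sets of Y-linked genes read −2.23 to 34.4 in the females.

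Promoters are shown because HNF4 proteins have a preferred binding sequence that can be looked for in these genes. The letters CAAAGTCCA, a core that HNF4 prefers, and CAAAGGTCA, the later part of a direct repeat that HNF4 shares with other receptors, were searched on both strands of RefSeq promoters of GRCm38.p6, which run from 250 bases before to 50 bases after a gene start. The motifs differ in their letters and cannot both match the same bases. Promoters were found for 39 of the 49 members. CAAAGTCCA stood in 5 of these 39 (12.8%), against 150 of 27025 genes in the whole table (0.555%), and CAAAGGTCA in 1 (2.56%), against 147 genes (0.544%). The 5 were Cyp3a11, Cyp3a16, Cyp2c65, Cyp2c68 and Cyp2c70, which lie in the gene clusters of chromosomes 5 and 19 and are not independent of each other, and the sixth gene was Cyp3a25. Matches began 109 bases before the start in Cyp3a11, 99 in Cyp3a16, 116 in Cyp2c65, 77 in Cyp2c68, 64 in Cyp2c70 and 180 in Cyp3a25, all on the strand of the gene. Of these genes, 4 with signal well above the guide to empty signal are shown 5′ to 3′ with the match in capitals.
Cyp3a11: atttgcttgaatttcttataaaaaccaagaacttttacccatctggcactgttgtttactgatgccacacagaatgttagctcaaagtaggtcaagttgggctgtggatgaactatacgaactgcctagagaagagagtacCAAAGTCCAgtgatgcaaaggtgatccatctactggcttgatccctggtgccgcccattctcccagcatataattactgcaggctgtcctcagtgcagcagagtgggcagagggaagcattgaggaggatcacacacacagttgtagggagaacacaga
Cyp2c65: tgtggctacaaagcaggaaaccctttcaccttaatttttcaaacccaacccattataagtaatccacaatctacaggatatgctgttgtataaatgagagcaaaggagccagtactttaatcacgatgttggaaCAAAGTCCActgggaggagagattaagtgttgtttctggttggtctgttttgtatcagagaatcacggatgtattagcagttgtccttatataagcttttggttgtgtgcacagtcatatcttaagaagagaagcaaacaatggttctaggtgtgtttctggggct
Cyp2c68: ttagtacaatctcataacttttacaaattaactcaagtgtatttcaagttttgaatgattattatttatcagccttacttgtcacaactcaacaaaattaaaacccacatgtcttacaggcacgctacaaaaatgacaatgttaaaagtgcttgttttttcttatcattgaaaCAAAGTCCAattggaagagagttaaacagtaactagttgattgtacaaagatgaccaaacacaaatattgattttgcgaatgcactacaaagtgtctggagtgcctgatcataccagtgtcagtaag
Cyp3a25: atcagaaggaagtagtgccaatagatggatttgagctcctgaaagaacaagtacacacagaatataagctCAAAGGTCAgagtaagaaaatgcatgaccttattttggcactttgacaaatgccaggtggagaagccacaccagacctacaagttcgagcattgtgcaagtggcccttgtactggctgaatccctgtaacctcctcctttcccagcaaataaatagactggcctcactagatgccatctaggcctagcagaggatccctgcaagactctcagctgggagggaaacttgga
Their windows are chr5:145879805-145880104 (minus strand), chr19:39060756-39061055 (plus strand), chr19:39741052-39741351 (minus strand) and chr5:146009568-146009867 (minus strand). A match describes letters and is not shown to be a binding site.

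Of the 49 members, 30 were bright enough to be tested and 19 were not, since the dimmest 30% of all probe sets were left out. The 19 read between −20.3 and 50.3 over all arrays. On the scale of log2(intensity + 16), used for all differences below, the dimmest tested member averaged 5.42 and the brightest untested one 5.32. Cyp1a2, an AHR target best known from liver, was among the untested and read 19.1 and 17.9 in the null male and female, against 28.0 and 23.9 in the control male and female. Cyp4a14, a fatty acid hydroxylase induced through PPARA, read 20.9 and 7.20 in the null male and female, against 13.9 and 9.33 in the control male and female. Cyp2a12, a bile acid hydroxylase of mouse liver, read 27.4 and 18.4 in the null male and female, against 11.3 and 5.20 in the control male and female, and Cyp2d12 read 16.6 and 16.1 in the null male and female, against 3.16 and 5.43 in the control male and female. Cyp2c37 read −20.3 and −11.8 in the null male and female, against 6.81 and 9.83 in the control male and female, and Cyp2g1, an olfactory enzyme, read 1.20 and 16.8 in the null male and female, against 23.9 and 17.9 in the control male and female. All of these values lie at or below the guide to empty signal, so no difference is read from them. Of the 30 members tested, 24 read above that guide in every animal. The other 6, Cyp1b1, Cyp2c29, Cyp2c70, Cyp2d13, Cyp2e1 and Cyp2f2, reached it in at least 1 animal, so the differences given for them below rest in part on values that cannot be told from empty signal.

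The comparison of null with control asks which P450 transcripts depend on HNF4 in the intestine. No member passed an adjusted p of 0.05 in limma over 15838 probe sets (0 of 30, against 0.0126% of all probe sets), and each tested member had an adjusted p of 1. At an unadjusted p under 0.05, 4 members were lower in null, Cyp4f16, Cyp2d26, Cyp4v3 and Cyp4b1 (4 of 30, against 1.76% of 9546 genes), and 1 was higher, Cyp3a13 (1 of 30, against 1.47%). The difference lay below 0 in 21 of the 30 members, against 49.7% of all genes. Their median difference was −0.21, against 0.0014 for all genes. These counts describe the members bright enough to test and are no test of the whole list.

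Marker lists of several cell types also lay mostly to one side in null. The enterocyte markers had a median difference of −0.17, with 6 of 8 below 0, and their summed intensity was 26532 and 24575 in the null male and female, against 27987 and 27697 in the control male and female. All 5 goblet cell markers measured were above 0, with a median of 0.50 and a summed intensity of 15896 and 14678 in the null male and female, against 11742 and 11399 in the control male and female. All 5 T cell markers tested were below 0, with a median of −0.48 and a summed intensity, over all 6 measured, of 741 and 627 in the null male and female, against 969 and 1111 in the control male and female. All 7 smooth muscle markers were above 0, with a median of 0.22 and a summed intensity of 2236 and 2959.8 in the null male and female, against 2232 and 2307 in the control male and female. Of these 7, 5 went opposite ways in the sexes, with medians of −0.22 between the males and 0.71 between the females. Of 4 Paneth cell markers, 2 were below 0 and 2 above, and their summed intensity was 14539 and 14247 in the null male and female, against 19126 and 18344 in the control male and female. The only marker of these 5 lists to pass in limma was Pla2g2a, of Paneth cells, which read 292 and 550.4 in the null male and female, against 5767 and 4907 in the control male and female, a difference of −3.63 (SE 0.26) at an adjusted p of 0.028, and Mmp7, also of Paneth cells, passed with sex as a block (difference 1.22, adjusted p = 0.013 in limma). In each sex Pla2g2a alone fell by more than the summed intensity of the Paneth markers did. That sum therefore does not show a fall of the other Paneth markers. No marker of these lists was at 0. Fewer cells of a type and less RNA per cell cannot be told apart in this bulk RNA, and the part of these shifts in the P450 values was not tested.

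**Figure D1:**
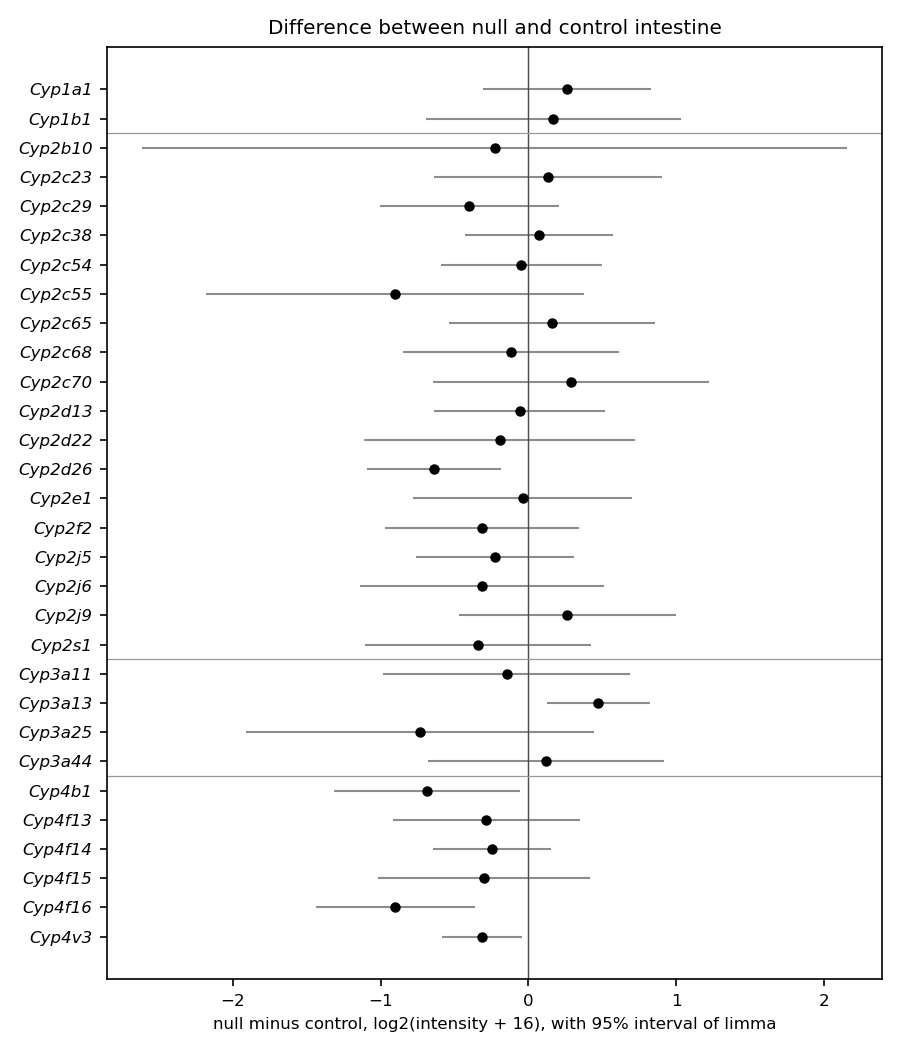
Null minus control difference of the 30 members tested, in log2(intensity + 16) on the horizontal axis, with the 95% interval of limma as bars (n = 2 animals a group), ordered by family. All 6 Cyp4 genes lie below 0, from −0.90 for Cyp4f16 to −0.24 for Cyp4f14, and Cyp3a13 lies farthest above 0, at 0.47.

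The Cyp1 genes, which oxidise aromatic hydrocarbons and are induced through AHR, were dim. Cyp1a1 read 38.9 and 58.2 in the null male and female, against 35.9 and 41.6 in the control male and female. Its difference was 0.26 (SE 0.24, 95% interval −0.31 to 0.83), and the groups overlapped as deposited but not after normalization. Cyp1b1 read 21.1 and 60.9 in the null male and female, against 24.1 and 44.4 in the control male and female, so that both females were above both males. Its difference was 0.17 (SE 0.36), while its 2 dimmer probe sets, which were not tested, gave −0.026 and −0.36.

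In the Cyp2 family, 13 of 18 members tested had a difference below 0 and 5 above, with a median of −0.16. Cyp2d26, of the drug-oxidising Cyp2d cluster on chromosome 15, had the smallest p of the family. It read 844 and 629 in the null male and female, against 1289 and 1053 in the control male and female. Both null animals lay below both controls, and the difference was −0.64 (SE 0.19, 95% interval −1.09 to −0.19), with −0.56 between the males and −0.72 between the females. Its unadjusted p was 0.013 in limma. With sex as a block its adjusted p in limma was 0.178, and no member passed in that fit either (0 of 30, against 0.183% of all probe sets). At an unadjusted p under 0.05 that fit had 6 members lower in null, against 2.74% of genes, and 1 higher, against 2.65%.

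The other Cyp2d genes tested did not separate the groups so clearly. Cyp2d22 read 125 and 57.9 in the null male and female, against 116 and 92.2 in the control male and female, a difference of −0.20 (SE 0.38). Its second probe set read 55.6 and 102 in the null male and female, against 95.3 and 76.8 in the control male and female, with the null female highest on it and lowest on the first, so the probe sets disagree on the order of the animals. Cyp2d13 read 24.9 and 30.4 in the null male and female, against 30.7 and 30.5 in the control male and female, all within the guide to empty signal, and the difference was −0.06 there and −0.65 on a dimmer probe set that was not tested.

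The Cyp2c cluster on chromosome 19 holds epoxygenases and hydroxylases of arachidonic acid. Cyp2c65, an enzyme of mouse gut, read 984 and 844 in the null male and female, against 1149 and 603 in the control male and female, and Cyp2c68 read 248 and 349 in the null male and female, against 445 and 247 in the control male and female. Null and control overlapped in both genes, whose promoters are printed above, with differences of 0.16 (SE 0.29) and −0.12 (SE 0.31). Cyp2c55, inducible by drugs in mouse intestine, read 38.2 and 49.2 in the null male and female, against 194 and 45.6 in the control male and female. The control male stood apart from the other 3 animals, and the difference of −0.90 (SE 0.54) was −1.82 between the males and 0.01 between the females. Cyp2c29, an epoxygenase best known from liver, read 24.3 and 27.9 in the null male and female, against 47.2 and 35.3 in the control male and female, close to the guide to empty signal, with a difference of −0.40 (SE 0.25, 95% interval −1.01 to 0.21). Cyp2c70, which makes muricholic acids in mouse liver, read 16.2 and 50.4 in the null male and female, against 14.0 and 35.2 in the control male and female, with the females higher than the males and a difference of 0.29 (SE 0.39). The remaining Cyp2c genes tested, Cyp2c23, Cyp2c38 and Cyp2c54, had differences between −0.049 and 0.13.

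Cyp2b10, the phenobarbital-inducible target of CAR, had 3 tested probe sets. The brightest read 346 and 88.0 in the null male and female, against 620.5 and 66.6 in the control male and female. The males were high and the females low in both groups, so null and control overlapped. The difference was −0.23 (SE 1.00, 95% interval −2.61 to 2.15), which leaves its direction unresolved, and it was −0.73 between the males and 0.27 between the females. The other probe sets had the same order of males and females and differences of −0.27 and −0.40.

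The Cyp2j genes on chromosome 4 encode epoxygenases of arachidonic acid. Cyp2j6, expressed in mouse small intestine, read 241 and 507 in the null male and female, against 561 and 377 in the control male and female, and its difference of −0.31 (SE 0.35) was −1.07 between the males and 0.45 between the females. Cyp2j9 read 145 and 95.1 in the null male and female, against 113 and 85.1 in the control male and female, a difference of 0.26 (SE 0.31). Cyp2j5, best known from kidney, had a difference of −0.23 (SE 0.22), and its dimmer untested probe set gave 0.087. Groups overlapped for Cyp2j6 and Cyp2j9, and the interval of each of the 3 included 0.

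Among the single-gene subfamilies, Cyp2s1, an enzyme of epithelia outside the liver, read 203 and 133 in the null male and female, against 263 and 179 in the control male and female, with a difference of −0.34 (SE 0.32). Cyp2e1, which oxidises ethanol, read 39.0 and 36.9 in the null male and female, against 28.4 and 56.8 in the control male and female, with a difference of −0.037 (SE 0.31). Cyp2f2, best known from the airway, read 24.2 and 20.3 in the null male and female, against 29.1 and 36.3 in the control male and female, and its difference of −0.32 (SE 0.27) was −0.0082 between the males and −0.62 between the females. The 95% interval of each included 0, and the values of Cyp2e1 and Cyp2f2 reach down to the guide to empty signal.

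The Cyp3a genes lie on chromosome 5 and include the main drug-oxidising enzymes of liver and gut. Cyp3a13 read 1748 and 1445 in the null male and female, against 1229.95 and 1055 in the control male and female. Both null animals lay above both controls. The difference was 0.47 (SE 0.15, 95% interval 0.12 to 0.82), or 1.39-fold, with 0.49 between the males and 0.45 between the females. Its unadjusted p was 0.016 in limma. On the normalized scale 2 of the 30 members had both null animals above both controls, Cyp3a13 and Cyp1a1, against 14.4% of all genes.

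The other Cyp3a genes tested had other patterns. Cyp3a11, a PXR target and the most studied drug-inducible Cyp3a gene of the mouse, read 4487 and 2249 in the null male and female, against 4738 and 2658 in the control male and female. The males were the higher animals in both groups, and the difference was −0.15 (SE 0.35, 95% interval −0.98 to 0.69). Cyp3a25 read 623 and 234 in the null male and female, against 879 and 479 in the control male and female. It was lower in null within each sex, with −0.44 between the males and −1.02 between the females, and the difference over all 4 animals was −0.73 (SE 0.49, 95% interval −1.91 to 0.44). With sex as a block its adjusted p was 0.298 in limma. Cyp3a44, a female-predominant gene of mouse liver, read 113 and 106 in the null male and female, against 70.0 and 150.1 in the control male and female, a difference of 0.12 (SE 0.33). Cyp3a11 and Cyp3a25 are the Cyp3a genes with a motif match printed above.

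**Figure D2:**
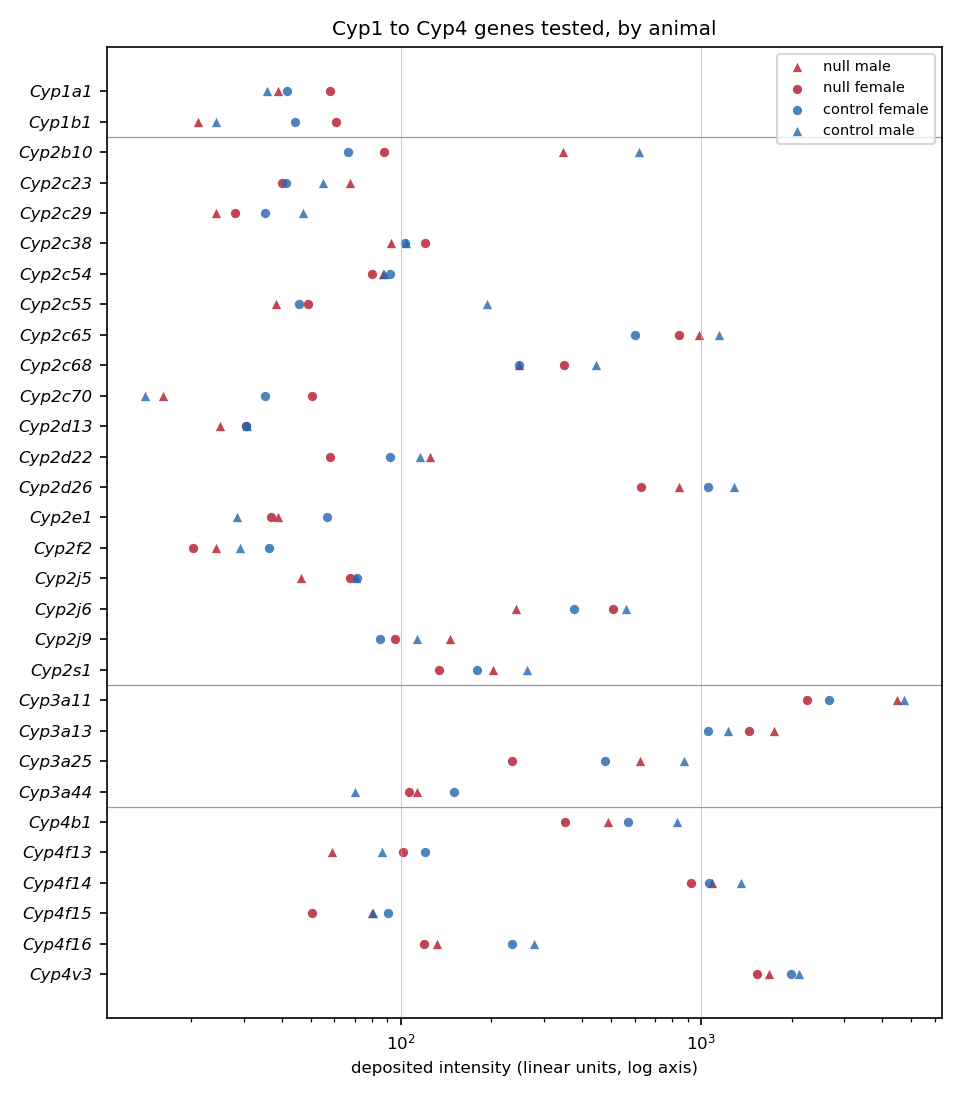
Deposited intensity (log axis) of each of the 30 members tested in each animal, with null animals in red, controls in blue, males as triangles and females as circles. Red and blue symbols are apart for Cyp4f16, Cyp2d26 and Cyp3a13, whereas for Cyp2b10, Cyp3a11 and Cyp3a25 the triangles lie to the right of the circles.

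All 6 Cyp4 genes tested had a difference below 0, with a median of −0.31, and with medians of −0.30 between the males and −0.50 between the females. On the normalized scale both null animals lay below both controls in 3 of the 6, Cyp4f16, Cyp4b1 and Cyp4v3, and in 8 of the 30 members, against 15.2% of all genes. The other 5 were Cyp2d26, Cyp2j5 and the dim Cyp2c29, Cyp2d13 and Cyp2f2, while Cyp2c54 and Cyp4f15 separated the groups as deposited but not after normalization. Cyp4f16, of a subfamily that hydroxylates leukotrienes and fatty acids, had the smallest p of all members. It read 132 and 119 in the null male and female, against 277.4 and 234 in the control male and female. The difference was −0.90 (SE 0.23, 95% interval −1.44 to −0.36), or 0.536 of the control level, with −0.87 between the males and −0.93 between the females. Its unadjusted p was 0.0058 in limma. The second Cyp4f16 probe set also had both null animals below both controls, at 125 and 88.3 in the null male and female, against 182 and 175 in the control male and female, and gave −0.64 (SE 0.27).

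Cyp4b1, an enzyme best known from lung, read 489 and 352 in the null male and female, against 832 and 569.8 in the control male and female. Both null animals were again below both controls, and the difference was −0.69 (SE 0.26, 95% interval −1.32 to −0.054), with −0.71 between the males and −0.66 between the females and an unadjusted p of 0.037 in limma. It was −0.40 without the control male and −0.43 without the null female. Cyp4v3, the mouse relative of a human fatty acid hydroxylase whose loss causes a crystalline retinal dystrophy, read 1677 and 1537 in the null male and female, against 2109 and 1991 in the control male and female. Its difference was small, −0.31 (SE 0.11, 95% interval −0.58 to −0.042), beside SDs of 0.06 in null and 0.041 in control (n = 2 each), and its unadjusted p was 0.029 in limma. On the second Cyp4v3 probe set the groups overlapped and the difference was −0.16 (SE 0.14).

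Cyp4f14, which hydroxylates leukotrienes, read 1086 and 924 in the null male and female, against 1360.2 and 1062 in the control male and female, so the groups overlapped at a difference of −0.24 (SE 0.17). The dimmer Cyp4f13 read 58.9 and 102 in the null male and female, against 86.1 and 120.2 in the control male and female, and Cyp4f15 read 80.1 and 50.5 in the null male and female, against 80.8 and 90.2 in the control male and female. Their differences were −0.28 (SE 0.26) and −0.30 (SE 0.30), and on the normalized scale neither separated the groups, although as deposited both null animals were below both controls for Cyp4f15.

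Within the sexes, 13 of the 30 members were lower in null in both pairs (against 24.2% of all genes) and 5 were higher in both (against 24%). The other 12 went opposite ways, as did 4933 of all 9546 genes tested. Cyp4f16, Cyp4b1, Cyp2d26 and Cyp3a25 were lower in null by more than 0.4 in each pair.

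**Figure D3:**
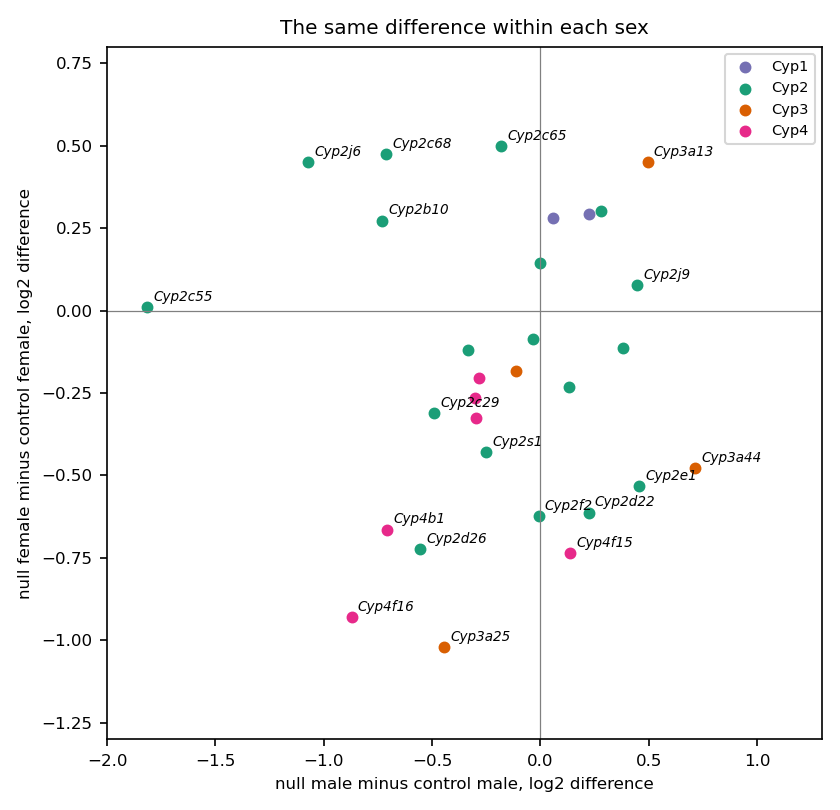
Null minus control log2 difference in the male pair (horizontal axis) against that in the female pair (vertical axis) for the 30 members tested, coloured by family. Cyp4f16, Cyp4b1 and Cyp2d26 lie low on both axes, Cyp3a13 lies high on both, and Cyp2c55 is at −1.82 between the males and 0.01 between the females.

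The animals did not contribute evenly. The null female was the lowest of the 4 for 15 of the 30 members (against 26.2% of all genes), among them Cyp2d26, Cyp4b1, Cyp4f16 and Cyp4v3. The control male, which had no Cre, was the highest for 16 (against 21.6%), among them these 4 genes and Cyp2b10, Cyp2c55, Cyp3a11 and Cyp3a25. In the other direction, the null female was highest for 4 (against 27.3%) and the control male lowest for 5 (against 19.6%). The null male was highest for 6 (against 32%) and lowest for 4 (against 32.8%), and the control female was highest for 4 (against 19%) and lowest for 6 (against 21.3%). Without the null female the median difference of the members was 0.00045, with 14 of 29 tested below 0, against 21 of 30 with all animals. Without the control male it was −0.079, with 21 of 30 below 0. It was −0.21 without the null male and −0.32 without the control female. Each of these fits leaves the sexes unequal between null and control, so animal, sex and genotype cannot be told apart in them. Within the sexes, the median difference of the 30 members was −0.15 between the males and −0.19 between the females.

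The males were then compared with the females through the sex term of the fit that holds sex and genotype, a comparison added after the values were seen. Of the 30 members, 3 passed as higher in males, Cyp2b10, Cyp3a11 and Cyp3a25 (3 of 30, against 0.335% of all genes), and none passed as lower. At an unadjusted p under 0.05, 10 were higher in males (against 5.13%) and 2 lower (against 3.81%). Both males lay above both females for 9 members (against 19.8%) and below for 3 (against 20.7%).

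Cyp2b10 read 346 and 620.5 in the null and control males, against 88.0 and 66.6 in the null and control females. The male minus female difference was 2.47 (SE 0.25, 95% interval 1.91 to 3.03), or 5.55-fold, at an adjusted p of 0.0021 in limma. Its other probe sets gave 2.43 (adjusted p = 0.003 in limma) and 2.26 (adjusted p = 0.036 in limma). Cyp3a11 read 4487 and 4738 in the null and control males, against 2249 and 2658 in the null and control females. Its difference was 0.87 (SE 0.10, 95% interval 0.65 to 1.09), or 1.83-fold, at an adjusted p of 0.003 in limma. Cyp3a25 read 623 and 879 in the null and control males, against 234 and 479 in the null and control females. Its difference was 1.16 (SE 0.18, 95% interval 0.76 to 1.57), or 2.24-fold, at an adjusted p of 0.02 in limma. The males were above the females in all 3 genes, while Cyp3a13 differed by 0.21 (adjusted p = 0.697 in limma).

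These calls rest on a fit with 1 residual degree of freedom. With sex alone in the model none of the 3 passed, at adjusted p in limma of 0.054 for Cyp2b10, 0.067 for Cyp3a11 and 0.518 for Cyp3a25. That model called 0 members without the null male, 0 without the control male, 2 without the null female and 3 without the control female.

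The pairs also differed outside the P450 genes. Of 48 genes called in the fit with both terms, 5 lie on chromosome X or Y and 43 elsewhere. Among these, the histocompatibility gene H2-Bl read 511 and 659.6 in the null and control males, against 121 and 125 in the null and control females, and H2-D1 read 1733 and 1472 in the null and control males, against 2992 and 2539 in the null and control females. Jchain, of plasma cells, read 2944 and 3243 in the null and control males, against 1480.4 and 1395 in the null and control females, a male minus female difference of 1.07 (adjusted p = 0.0028 in limma). The other 3 B cell markers measured went the other way without passing, with differences of −1.25 for Cd79a, −1.53 for Cd79b and −1.58 for Ms4a1. The summed intensity of all 4, which is mostly Jchain, was 3192 and 3336 in the null and control males, against 2041 and 1946 in the null and control females, and no marker was at 0. Their part in the P450 values was not tested.

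**Figure D4:**
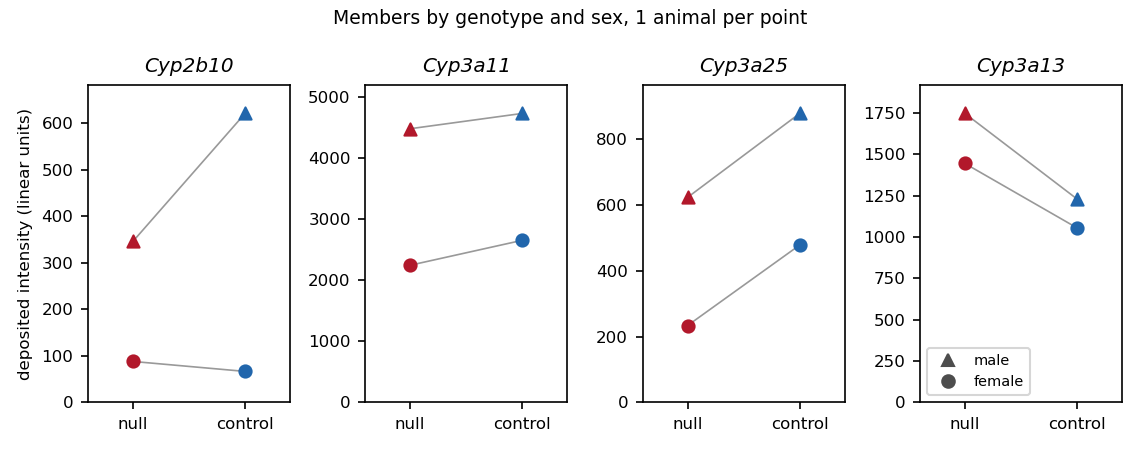
Deposited intensity (linear axis from 0) of Cyp2b10, Cyp3a11, Cyp3a25 and Cyp3a13 in null and control animals, 1 point per animal, with lines joining animals of the same sex. The male points lie above the female points for Cyp2b10, Cyp3a11 and Cyp3a25, and for Cyp3a13 both null points lie above both control points.

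Genes that serve or regulate these enzymes were read from the null and control fit, and none passed in limma. All 6 electron donors and partners tested were below 0, with a median of −0.15. The smallest p values belonged to Pgrmc1, a haem-binding partner, at −0.19 (SE 0.14), and Cyb5b, a cytochrome b5 of the outer mitochondrial membrane, at −0.14 (SE 0.15). Of 10 genes of haem synthesis and breakdown tested, 4 were below 0 and 6 above, with a median of 0.049. The biliverdin reductases Blvrb and Blvra, of haem breakdown, had the smallest p values, at −0.61 (SE 0.28) and −0.30 (SE 0.21).

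Of 11 regulators tested, 5 were below 0 and 6 above. Nr1i3, which encodes CAR, read 35.4 and 43.6 in the null male and female, against 139 and 97.1 in the control male and female. Its null values lie close to the guide to empty signal, so the size of its difference is uncertain. Both null animals were below both controls, and the difference was −1.22 (SE 0.25) at an unadjusted p of 0.0022 in limma, with −1.46 between the males and −0.99 between the females. The differences of Cyp2b10, the CAR target, were −0.73 between the males and 0.27 between the females. Ppara read 151 and 96.6 in the null male and female, against 231 and 177 in the control male and female, a difference of −0.63 (SE 0.31). The epoxide hydrolases Ephx1 and Ephx2, which act on P450 products, were at −0.37 (SE 0.25) and 0.14 (SE 0.19). In P450 families 5 and above, 5 of 14 genes measured were bright enough to test, with 1 below 0 and 4 above and a median of 0.093. The smallest p values were those of Cyp21a1, a steroid hydroxylase, at 0.43 (SE 0.45), and Cyp27a1, of bile acid synthesis, at −0.25 (SE 0.37).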

How the data were processed

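RNA was extracted with a Qiagen kit, labelled with biotin and hybridised by the maker's usual procedure, per the labels. The deposited values are linear intensities, 1 per array for each probe set. Neither their summarising software and scaling nor the HNF4 gene targeted is given in the labels. The null female's genotype comes from its source label, since its strain label reads only HNF4 null. Names came from the platform annotation, and all 49 members matched a symbol in a gene table of GRCm38.p6. After 64 control probe sets were left out, 22626 remained. Intensities were quantile normalized, floored at 0 and put on the scale of log2(intensity + 16), which understates changes of dim genes. limma 3.58.1 in R 4.3.3 compared 2 null with 2 control animals without covariates, with an intensity trend, two-sided, with Benjamini-Hochberg adjustment over 15838 probe sets (2 residual and 4.65 prior degrees of freedom). P-values rest on the spread between these animals, moderated by the spread of other probe sets. Within each group this spread includes the difference between the male and the female. On simulated data of 15838 probe sets and 2 animals a group, 19 of 50 probe sets changed by 1 on the log2 scale were called. Of 50 changed by 2, 48 were called, as were all 50 changed by 3 and all 50 changed by 4. All of these changes were in the same simulated fit, which also called 21 unchanged probe sets. The adjustment depends on how many probe sets change, and the real fit called 2. The simulated noise was independent between probe sets and held no sex difference, so these shares need not hold for the real arrays. Named genes were members with a difference of at least 0.5 and 1 sign in both sexes, the brightest of each subfamily, the 6 smallest p values in each direction, receptor targets, and genes whose probe sets differ in sign or by over 0.5. Others were chosen after their values were seen. Probe sets of Cyp2b10, Cyp2c23, Cyp2c65 and Cyp4v3 and the second of Cyp4f16 carry a suffix that marks probes shared between transcripts, so near-identical copies may add to their signal. The members and lists were chosen with earlier results of these data known.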

Additional observations from a re-analysis of the deposited data

Results flagged for a closer look

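Among the tested genes that met the naming rule, the null minus control difference of 3 went opposite ways in the sexes. It did so by at least 0.25 on the log2 scale in each sex. Cyp2b10 was at −0.73 between the males and 0.27 between the females. Cyp2e1 was at 0.46 between the males and −0.53 between the females. Cyp2j6 was at −1.07 between the males and 0.45 between the females. Outside that rule, the tested members Cyp2c68 and Cyp3a44 also went opposite ways by this much. Cyp2c68 was at −0.71 between the males and 0.47 between the females, and Cyp3a44 at 0.72 and −0.48. Opposite directions of any size were seen in 12 of the 30 members, against 4933 of 9546 genes. With 1 animal per sex and group, the difference between the pairs was not tested.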

How the results depend on the processing

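No member passed under any of the 13 alternatives to the null and control comparison, which changed the pseudocount, the filter on dim values, the normalization, the intensity trend, the block, the probe sets per gene or left out 1 animal. The median difference of the members was below 0 in all of these except without the null female, and ran from −0.32 to 0.00045 without 1 animal and from −0.24 to −0.14 in the others. Over all probe sets 2 were called, against 1 without an intensity trend, 29 with sex as a block, and 0 (205 at an unadjusted p under 0.05) to 35 without 1 animal in limma. Of the differences of named genes under an alternative, 258 kept their direction and stayed on the same side of the threshold, and 14, of 10 genes, changed sign without a call, all of them without 1 animal. Over the fits without 1 animal, the ranges of these genes were −0.79 to 0.15 for Cyp2j6, −0.11 to 0.64 for Cyp2j9, −0.24 to 0.57 for Cyp1b1, −1.71 to 1.26 for Cyp2b10, −0.39 to 0.31 for Cyp2e1, −0.71 to 0.028 for Cyp2s1, −0.60 to 0.30 for Cyp3a11, −1.43 to 0.00045 for Cyp3a25, −0.30 to 0.61 for Cyp2c65 and −0.10 to 0.68 for Cyp2c70. Among the named genes that kept their sign they were −1.06 to −0.74 for Cyp4f16, −0.98 to −0.40 for Cyp4b1, −0.84 to −0.44 for Cyp2d26, −0.35 to −0.27 for Cyp4v3, −0.40 to −0.087 for Cyp4f14, −0.55 to −0.25 for Cyp2c29, −1.79 to −0.0095 for Cyp2c55, −0.51 to −0.11 for Cyp2f2, −0.088 to −0.03 for Cyp2d13, −0.33 to −0.13 for Cyp2j5, 0.15 to 0.37 for Cyp1a1 and 0.35 to 0.60 for Cyp3a13. Members at an unadjusted p under 0.05 in limma numbered 5, against 2 without an intensity trend or with array medians set equal, 7 with sex as a block, and 2 to 8 without 1 animal. Sex as a block pairs the null and the control animal of each sex. A fit of null against control without 1 animal leaves the sexes unequal between the groups, so its changes of sign mix genotype with sex. For males against females, alternatives chosen after seeing the data gave 6 probe sets and 0 members with sex alone, against 84 and 3 with genotype too, and with sex alone 6 and 0 without the null male, 20 and 2 without the null female, 73 and 3 without the control female, and 2 and 0 without the control male. The cause of these changes was not tested. Without detection calls, the dim members cannot be told from empty signal.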

Other observations

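A probe set annotated to both Cyp4a31 and Cyp4a10, of the Cyp4a subfamily of fatty acid hydroxylases induced through PPARA, lies outside the members. It read 28.9 and 62.8 in the null male and female, against 171 and 160.5 in the control male and female. The null male value lies within the guide to empty signal, so the size of the difference is uncertain. Both null animals were below both controls, and the difference was −1.57 (SE 0.27, 95% interval −2.20 to −0.93), with −1.92 between the males and −1.21 between the females. Its adjusted p in limma was 1, and 0.056 with sex as a block. Cyp4a10 had no probe set of its own. The probe set of Cyp4a31 alone read 12.1 and 13.6 in the null male and female, against 10.3 and 12.4 in the control male and female. These values lie within the guide to empty signal. A probe set annotated to Cyp4f37 and to Cyp4f16, itself a member, was also left out. It read 180.2 and 134 in the null male and female, against 273 and 255 in the control male and female. Both null animals were again below both controls, with a difference of −0.67 (SE 0.25). Since Cyp4f16 is among its genes, this probe set does not stand for a further Cyp4f gene.

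Other enzymes of drug metabolism, chosen after their values were seen, were among the genes called between males and females. Gstm1, a glutathione transferase, read 989.6 and 1824 in the null and control males, against 338 and 641 in the null and control females (male minus female 1.52, adjusted p = 0.0011 in limma). Ces2a, a carboxylesterase, read 1208 and 1403 in the null and control males, against 642 and 651 in the null and control females (male minus female 1.00, adjusted p = 0.011 in limma).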
